A study of Mus musculus with 8 samples.

Results

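The chromatin modifiers and remodellers described here are the protein-coding genes whose mouse symbol starts with Kdm, Kmt, Hdac, Sirt, Smarc, Chd, Arid, Brd, Dnmt, Tet, Setd, Prmt or Kat. The rule uses names and no measured value, but it was set with earlier results of these data known. The annotation held 119 such genes, of which 112 were among the 12830 deposited genes and 7 were not (Arid3c, Brd3os, Brd8dc, Hdac11, Kdm4d, Kdm5d and Prmt8). Names that match the pattern only by chance were left out. Of the 112 members, 110 passed the filter on low counts, and Smarcd3 and Tet1, with at most 19 and 10 counts in any library, did not.

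Chromatin modifiers write, erase or read chemical marks on histones and DNA, and remodellers use ATP to slide or evict nucleosomes. Histone acetylation and most methylation of lysine 4 of histone H3 mark active genes, whereas methylation of DNA and of lysines 9 and 27 of H3 is found at many silent ones. In myeloid cells PU.1, the ETS-family transcription factor encoded by Spi1, is needed for monocyte and granulocyte development, and several of the genes below (Dnmt3a, Tet2, Kmt2a, Kat6a) are mutated or rearranged in acute myeloid leukaemia.

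RNA was sequenced from bone marrow cells of C57BL/6 recipient mice carrying AML410, a p53-/- acute myeloid leukaemia with a monosomal karyotype and a GFP-linked short hairpin RNA against PU.1 (shPU.1) that doxycycline (Dox) switches off. The 4 groups, of 2 libraries each, were leukaemic cells from untreated mice sorted as GFPhigh, and from mice given Dox for 2 days (GFPhigh-mid), 4 days (GFPmid) and 6 days (GFPlow). All groups share the leukaemia, the p53 loss and the hairpin construct. AML410 is 1 leukaemia, no library is without the hairpin, and time on Dox changed together with the GFP gate, so the effects of the 2 cannot be told apart. The sample titles call the libraries technical replicates and the series text speaks of duplicate mice, so p-values measure only the spread between these libraries, which may be technical.

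Each library held between 9262047 and 11213292 counts. Spi1 itself stood at 8.34 and 12.9 CPM in the untreated libraries, 14.8 and 15.6 at day 2, 94.0 and 103 at day 4 and 217 and 229 at day 6 (CPM, counts scaled to library size with TMM factors). The libraries of all 3 Dox days lay above both untreated ones, those of day 2 by the least. All 11 neutrophil markers and all 9 monocyte and macrophage markers tested were higher at day 6 than in untreated cells, and 5 of 8 myeloid progenitor markers were lower. Summed neutrophil markers reached 62093 and 76193 CPM at day 6, against 4299 and 2885 CPM in the untreated libraries, while summed progenitor markers were 5241 and 5088 CPM at day 6, against 16958 and 15230 CPM in the untreated libraries. Of 20 markers of the G2 and M phases 17 rose at day 6, and of 20 S phase markers 3 rose and 6 fell. Erythroid markers summed to 40.8 and 64.5 CPM at day 6, against 14.5 and 6.62 CPM in the untreated libraries. In bulk RNA, fewer cells of a type and less RNA per cell cannot be told apart, and the part that the changing cell types play in the changes below was not tested. The library of untreated replicate 2 stood apart for these genes: member counts summed to 10410 CPM there, against 8855 to 9779 CPM in the other 7. Its excess over untreated replicate 1 grew with gene length, with a median log2 difference of -0.11 over the shortest and 0.09 over the longest of 4 equal length classes of all genes. Over the members it was 0.15, and their median deposited length was 4940 bases, against 2853 bases over all deposited protein-coding genes. Between the replicates of the other groups the same difference stayed within 0.03 of 0 in every length class and over the members. In day 2 replicate 1 a single gene held 13.3% of all counts, against 0.957% to 1.73% in the other 7 libraries.

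**Figure D1:**
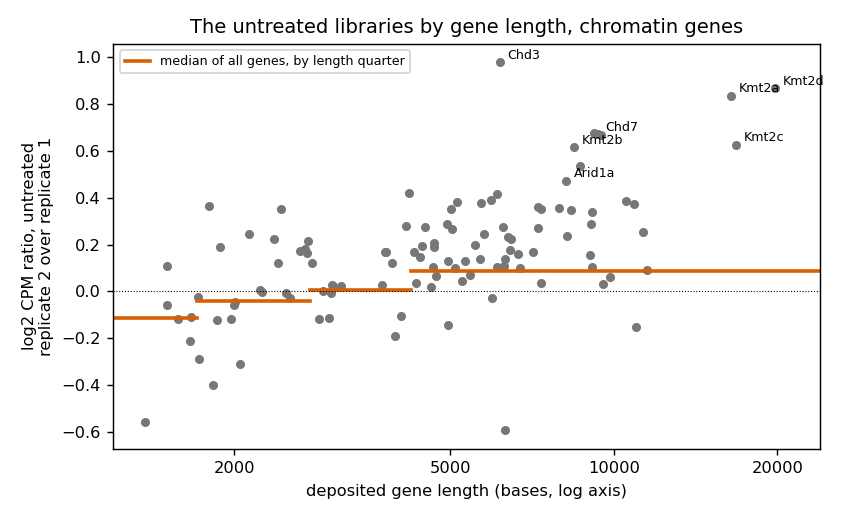
Each grey point is 1 tested chromatin gene, with its deposited length in bases on a log axis and, on the vertical axis, the log2 ratio of its CPM in untreated replicate 2 over untreated replicate 1; orange bars give the median of all tested genes in each of 4 equal length classes. Kmt2a and Kmt2d, among the 3 longest members, lie above 0.8, whereas the bar of the shortest class lies at -0.11.

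At day 6, 27 members rose and 38 fell against untreated cells (edgeR quasi-likelihood test, adjusted p under 0.05 over all 12330 genes tested), which is 65 of 110 where 63.6% of all genes were called. At day 4, 19 rose and 28 fell, where 48.0% of all genes were called, 26.1% higher and 22.0% lower. At day 2, 2 fell (Dnmt3a and Kdm6b) and none rose, where 6.13% of all genes were called, 4.18% higher and 1.95% lower. In that edgeR test 30 members had an unadjusted p under 0.05, against 21 with each library's trend with gene length removed and 17 in DESeq2. The share of all genes with such a p was not computed, so no excess over all genes can be read from these counts. DESeq2 also called 2 members, Dnmt3a and Chd4. Every called member had groups that did not overlap, at day 4 and at day 6. The share of all called genes for which this held was not computed, so whether it is particular to the members cannot be told. The test across all 4 groups called 69 members, or 62.7%, where 65.1% of all genes were called. At day 6 (59.1% of the members) and across the 4 groups, the members were therefore called about as often as other genes. At days 2 and 4 they were called less often, at 1.82% and 42.7%, against 6.13% and 48.0% of all genes. Their changes were smaller: the median absolute log2 fold change at day 6 was 0.34 over the members and 0.52 over all genes. Only 5 members rose by over 2-fold at day 6 (Arid3b, Kdm7a, Setdb2, Hdac4 and Kdm5b) and 9 fell by as much (Chd5, Prmt3, Smarca1, Dnmt3l, Chd3, Kat2a, Prmt5, Setd4 and Prmt7), where 13.7% of all genes rose and 12.0% fell past that size.

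The lean of the members towards rises or falls depended on the untreated libraries and on the scaling. At day 4 their median log2 fold change was -0.15 without untreated replicate 1, where that of all genes was -0.0036. It was 0.0028 over the members and -0.0029 over all genes without untreated replicate 2. At day 2 the median log2 fold change of the members was -0.16 without untreated replicate 1, where that of all genes was 0.019. Without untreated replicate 2 the medians were -0.010 over the members and 0.0046 over all genes. Scaling by total counts moved the median log2 fold change of all genes at day 6 to -0.47, against -0.04 with TMM. With that scaling 7 members rose and 70 fell at day 6, counts given without the share of all genes called. At day 4 it gave 6 and 50, where 51.4% of all genes were called. The 7 that still rose at day 6 were Arid3a, Arid3b, Hdac4, Kdm6b, Kdm7a, Setd3 and Setdb2. The falls then took in 8 Hdac, 4 Sirt, 9 Smarc, 10 Chd, 6 Setd and 4 Dnmt genes. How often other genes keep their calls with single libraries left out was not computed. Of the 65 calls at day 6, 41 (19 higher and 22 lower) were made with each of the 8 libraries left out in turn.

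**Figure D2:**
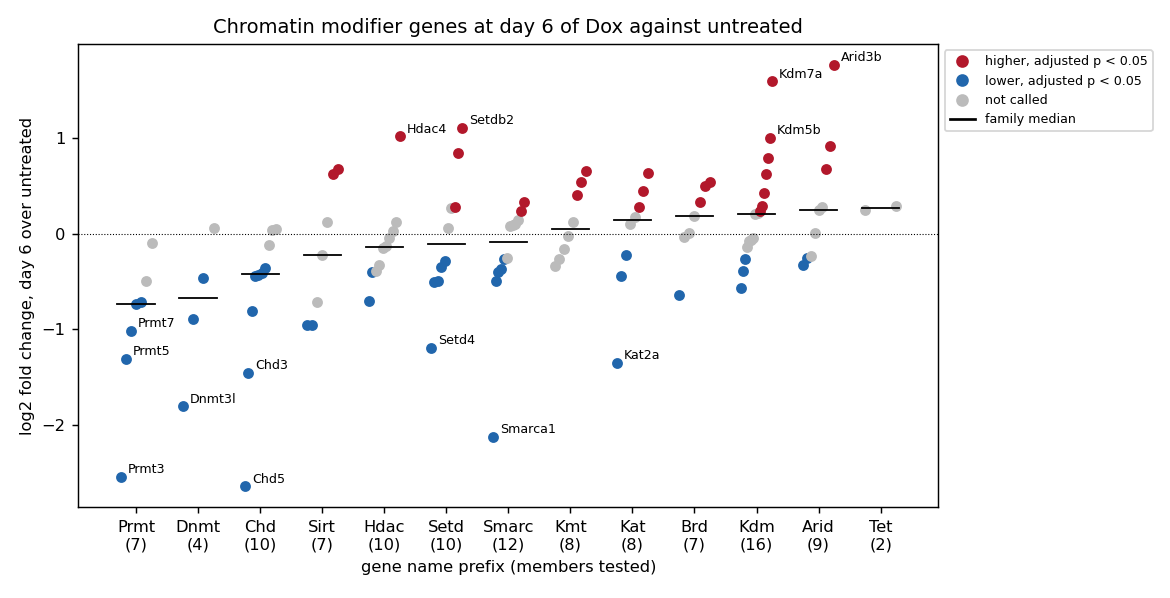
Points are the 110 tested members, placed by gene name prefix (number tested in brackets) and by the log2 fold change at day 6 over untreated from the edgeR fit; red and blue mark members called higher and lower, grey those not called, and bars the family median. The Prmt, Dnmt and Chd medians lie lowest, at -0.73, -0.68 and -0.42, and genes past a 2-fold change are named.

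Among arginine methyltransferases 5 of 7 fell at day 6 and none rose. These enzymes add methyl groups to arginines of histones, splicing factors and ribosomal proteins. The falls were those of Prmt1, Prmt3, Prmt5, Prmt6 and Prmt7, and Prmt2 and Prmt9 were not called, in a contrast where 31.6% of all genes were called lower. The 5 falls were called in every alternative run, except that 4 passed a minimum change of 1.5-fold, and scaling by total counts called all 7 lower. Summed over the 7 genes per length, the family stood at 90.7 and 94.2 RPKM (CPM divided by gene length in kilobases) at day 6, against 195 and 198 RPKM in the untreated libraries.

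Upstream sequence is shown for 3 of these genes and for Kdm7a, the rise with the smallest p, as examples of genes that moved in opposite directions. Each run is the 250 bases before the RefSeq start (GRCm38.p6), on the gene's strand, with matches to 3 motifs in capitals: GAGGAA, a purine-rich core that PU.1 and other ETS factors bind; CACGTG, the E-box bound by Myc and related factors; and GCGGGAA, an E2F-like core. Both strands were searched, CACGTG is its own reverse complement, and no motif contains another. The Prmt1 window is chr7:44986421-44986670 (minus strand), that of Prmt5 chr14:54517471-54517720 (minus), that of Prmt6 chr3:110251000-110251249 (minus) and that of Kdm7a chr6:39206774-39207023 (minus).
Prmt1: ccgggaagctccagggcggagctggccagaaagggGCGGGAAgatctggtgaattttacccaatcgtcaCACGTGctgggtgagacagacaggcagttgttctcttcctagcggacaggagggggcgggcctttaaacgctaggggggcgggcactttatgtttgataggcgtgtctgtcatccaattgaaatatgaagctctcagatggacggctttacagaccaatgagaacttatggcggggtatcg
Prmt5: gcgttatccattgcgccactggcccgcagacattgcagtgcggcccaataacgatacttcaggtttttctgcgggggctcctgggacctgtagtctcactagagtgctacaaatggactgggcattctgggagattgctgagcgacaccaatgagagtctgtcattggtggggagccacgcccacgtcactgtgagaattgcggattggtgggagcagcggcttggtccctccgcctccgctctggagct
Prmt6: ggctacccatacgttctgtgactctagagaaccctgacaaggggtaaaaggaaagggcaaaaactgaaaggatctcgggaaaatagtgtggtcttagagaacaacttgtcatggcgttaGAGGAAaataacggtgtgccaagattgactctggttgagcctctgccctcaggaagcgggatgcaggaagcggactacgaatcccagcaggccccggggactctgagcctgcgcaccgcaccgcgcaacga
Kdm7a: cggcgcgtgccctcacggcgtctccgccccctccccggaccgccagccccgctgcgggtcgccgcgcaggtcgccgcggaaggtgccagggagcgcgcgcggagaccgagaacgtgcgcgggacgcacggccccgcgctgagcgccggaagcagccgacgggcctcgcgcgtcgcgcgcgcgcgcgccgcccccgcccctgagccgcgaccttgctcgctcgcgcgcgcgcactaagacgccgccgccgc
The Prmt1 window held an E-box and an E2F-like match, the Prmt6 window held GAGGAA, and the letters of the 3 motifs were absent from the Prmt5 and Kdm7a windows. GC content was 54.8%, 58.0% and 54.0% in the 3 Prmt windows and 82.0% in that of Kdm7a. These windows do not stand for all risers and fallers: GC content was 70.0% in the window of Prmt7 and 60.4% in that of Prmt3, which fell, and 65.6% in that of Setdb2, which rose. The median was 65.2% over the windows of the members that rose and 62.4% over those of the members that fell. The RefSeq table matched 90 of the 112 members, with 125 windows. GAGGAA was in 18.4% of them, CACGTG in 6.4% and GCGGGAA in 6.4%, against 22.8%, 8.28% and 6.81% of the windows of all deposited genes. The 7 Prmt windows held CACGTG in 2, those of Prmt1 and Prmt3. A match describes letters and shows no binding.

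Prmt3, which methylates a protein of the small ribosomal subunit, fell the most of the 7. It stood at 137 and 136 CPM in the untreated libraries, 113 and 121 at day 2, 48.2 and 39.5 at day 4 and 22.3 and 24.6 at day 6. Both day 4 libraries and both day 6 libraries lay far below all 4 earlier ones (log2 fold change -2.54, SE 0.11, adjusted p = 4.03e-09 at day 6). Prmt5 is the main enzyme of symmetric arginine dimethylation. It measured 73.7 and 83.1 CPM in the untreated libraries, 75.2 and 87.0 at day 2, 58.0 and 48.4 at day 4 and 32.5 and 30.8 at day 6. Its fall was seen from day 4 (-0.56 at day 4; log2 fold change -1.31, SE 0.12, adjusted p = 1.73e-06 at day 6), and the untreated and day 2 libraries overlapped. Prmt1, which makes most asymmetric dimethylarginine, was the family's most abundant transcript per length, at 44.9 RPKM at day 6 and 73.8 RPKM in untreated cells. It had 113 and 109 CPM in the untreated libraries, 112 and 111 at day 2, 93.8 and 90.3 at day 4 and 67.3 and 68.1 at day 6. It was lower at both later days without overlap (log2 fold change -0.27, SE 0.07, adjusted p = 0.00749 at day 4; log2 fold change -0.72, SE 0.07, adjusted p = 5.03e-06 at day 6). The Prmt1 call was lost without day 4 replicate 2, at a log2 fold change of -0.25 at day 4.

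Prmt7 is a monomethylating enzyme. Its values were 34.0 and 34.0 CPM in the untreated libraries, 38.2 and 40.4 at day 2, 32.8 and 26.6 at day 4 and 15.3 and 18.3 at day 6. Day 4 was not called against untreated cells (log2 fold change -0.19, adjusted p = 0.212), whereas day 6 lay below every other library (log2 fold change -1.01, SE 0.13, adjusted p = 3.71e-05). It was lower at day 4 than at day 2 (log2 fold change -0.40, SE 0.12, adjusted p = 0.0214), a fall that was not called when day 2 replicate 2 or day 4 replicate 2 was left out, at -0.36 to -0.27. Prmt6, which methylates arginine in the tail of histone H3, had 15.8 and 14.8 CPM at day 6, against 21.7 and 29.1 CPM in the untreated libraries. The untreated libraries were themselves well apart (log2 fold change -0.73, SE 0.15, adjusted p = 0.00132). Of its exon bases 23.4% overlap an antisense transcript, and the sources used here do not give whether counting used strand. Prmt9, which methylates a splicing factor symmetrically, dipped at day 4. It stood at 35.9 and 39.1 CPM in the untreated libraries, 35.3 and 30.8 at day 2, 23.1 and 27.3 at day 4 and 33.1 and 37.0 at day 6. It was lower at day 4 than in untreated cells (log2 fold change -0.58, SE 0.12, adjusted p = 0.00198) and higher at day 6 than at day 4 (log2 fold change 0.48, SE 0.12, adjusted p = 0.0125), and day 6 overlapped the untreated libraries. The Prmt9 call was lost without day 4 replicate 1 or day 6 replicate 2, at a log2 fold change of 0.36 to 0.40 for day 6 over day 4. Prmt2, a low transcript with 4.84 and 5.40 CPM at day 6, against 8.004 and 6.46 CPM in the untreated libraries, did not pass the test (log2 fold change -0.49, SE 0.23, adjusted p = 0.0823).

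**Figure D3:**
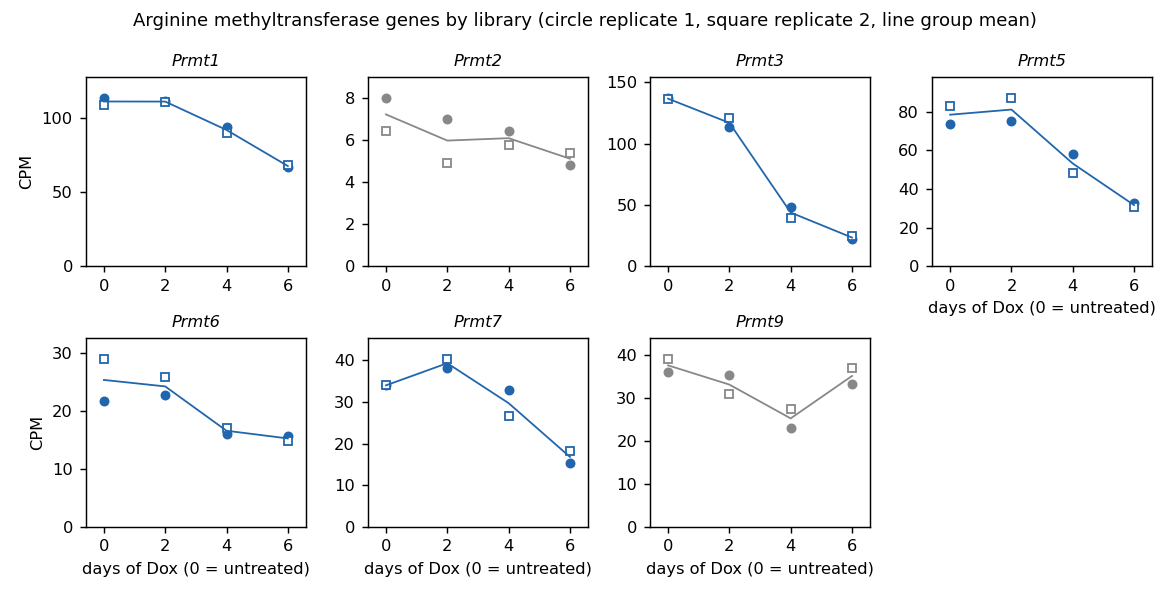
Panels give each tested arginine methyltransferase gene in CPM by library over days of Dox (0 is untreated). Circles are replicate 1, squares replicate 2, lines join group means, blue marks genes called lower at day 6 and grey those not called; Prmt3 lies between 22.3 and 24.6 CPM at day 6, against 136 and 137 CPM in the untreated libraries, and Prmt9 dips at day 4.

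Among acetyltransferases, which add acetyl groups to histone tails, 3 of 8 rose and 3 fell at day 6, where 32.0% of all genes rose and 31.6% fell. Kat2a (GCN5) is a catalytic subunit of the SAGA and ATAC coactivator complexes. It had 93.0 and 94.4 CPM in the untreated libraries, 89.1 and 86.8 at day 2, 60.4 and 56.2 at day 4 and 38.8 and 34.7 at day 6. It declined at both later steps, with both day 6 libraries below both day 4 libraries (log2 fold change -1.35, SE 0.08, adjusted p = 9.69e-08 at day 6). Kat14 is another ATAC subunit, and 14.7% of its exon bases overlap another protein-coding gene on the same strand. It was also lower at day 6 (log2 fold change -0.45, adjusted p = 3.10e-04). So was Kat7 (HBO1), the family's highest transcript per length (log2 fold change -0.22, adjusted p = 0.0182). The Kat7 call was lost without either day 6 library, at a log2 fold change of -0.24 to -0.21. Kat8 (MOF), which acetylates histone H4, had 18.7 and 21.4 CPM at day 6, against 12.4 and 13.4 CPM in the untreated libraries (log2 fold change 0.63, SE 0.13, adjusted p = 9.89e-04). Kat5 (TIP60), the acetyltransferase of the NuA4 complex, had 55.9 and 62.4 CPM at day 6, against 43.9 and 43.1 CPM in the untreated libraries (log2 fold change 0.44, SE 0.09, adjusted p = 9.88e-04). The remaining rise was Kat6a (MOZ), with a log2 fold change of 0.28 (adjusted p = 0.0355). The Kat6a call was lost without untreated replicate 1 or either day 6 library, at a log2 fold change of 0.12 to 0.31. Under scaling by total counts the family median changed sign, to -0.29 against 0.14 with TMM, and none of the 3 rises was called.

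Deacetylases remove those acetyl groups. Of 10 Hdac genes 1 rose and 2 fell at day 6, where 32.0% of all genes rose and 31.6% fell. Hdac4 is a class IIa enzyme that shuttles between cytoplasm and nucleus. It measured 14.8 and 13.0 CPM in the untreated libraries, 14.2 and 16.1 at day 2, 21.8 and 24.6 at day 4 and 29.5 and 26.7 at day 6. Its day 4 and day 6 libraries lay above all earlier ones (log2 fold change 1.01, SE 0.13, adjusted p = 3.27e-05 at day 6), and 22.4% of its exon bases overlap a noncoding transcript on the other strand. Hdac2, a class I enzyme of the NuRD, Sin3 and CoREST complexes, had 118 and 113 CPM in the untreated libraries, 122 and 116 at day 2, 107 and 90.4 at day 4 and 68.9 and 73.4 at day 6. It was called lower at day 6 (log2 fold change -0.70, SE 0.09, adjusted p = 4.37e-05) and not at day 4 (adjusted p = 0.0554). Hdac7, the other class IIa gene called at day 6, was lowest at day 4. It had 147 and 161 CPM in the untreated libraries, 135 and 128 at day 2, 96.8 and 104 at day 4 and 119 and 115 at day 6. Both days lay below the untreated libraries (log2 fold change -0.62, SE 0.08, adjusted p = 5.60e-05 at day 4; log2 fold change -0.40, SE 0.08, adjusted p = 9.09e-04 at day 6). Hdac9 was higher at day 4, with 24.4 and 21.5 CPM at day 4, against 15.3 and 17.5 CPM in the untreated libraries (log2 fold change 0.48, SE 0.13, adjusted p = 0.00979), and was not called at day 6. The Hdac9 call was lost without untreated replicate 1 or day 4 replicate 1, at a log2 fold change of 0.39 at day 4. Hdac1, the partner of Hdac2, had 52.7 and 52.4 CPM at day 6, against 53.8 and 49.6 CPM in the untreated libraries, and was not called (adjusted p = 0.843). Hdac3, the catalytic subunit of the NCoR complexes, had 76.0 and 71.9 CPM at day 6, against 82.3 and 79.9 CPM in the untreated libraries, and was not called either (adjusted p = 0.129).

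Sirtuins are NAD-dependent deacylases of nucleus, cytosol and mitochondria. Of 7 tested, 2 rose and 2 fell at day 6, where 32.0% of all genes rose and 31.6% fell. Sirt7, a nucleolar enzyme, rose, with 145 and 146 CPM at day 6, against 92.1 and 90.6 CPM in the untreated libraries (log2 fold change 0.67, SE 0.07, adjusted p = 5.61e-06). Sirt2, which is mainly cytosolic, rose as well, with 66.3 and 65.4 CPM at day 6, against 44.7 and 41.1 CPM in the untreated libraries (log2 fold change 0.62, SE 0.09, adjusted p = 7.54e-05). The falls were in 2 mitochondrial sirtuins. Sirt3, the main mitochondrial deacetylase, had 11.7 and 11.1 CPM at day 6, against 23.0 and 21.2 CPM in the untreated libraries (log2 fold change -0.95, SE 0.12, adjusted p = 3.33e-05). Sirt5, a desuccinylase, had at most 42 counts in a library (log2 fold change -0.95, SE 0.33, adjusted p = 0.0265). The Sirt5 call was lost without untreated replicate 1 or either day 6 library, at a log2 fold change of -1.09 to -0.65. Sirt4, also mitochondrial, had a log2 fold change of -0.71 that did not pass (adjusted p = 0.0664). Scaling by total counts left Sirt7 uncalled at 0.24 and Sirt2 at 0.19.

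Lysine demethylases made up the largest family, with 16 genes tested, of which 7 rose and 3 fell at day 6, where 32.0% of all genes rose and 31.6% fell. Under scaling by total counts 2 rose and 7 fell, and the family median was -0.23, against 0.20 with TMM. Kdm7a, which removes repressive methyl marks from histone H3, measured 138 and 140.4 CPM in the untreated libraries, 116 and 125 at day 2, 247 and 272 at day 4 and 417 and 419 at day 6. Both day 4 libraries lay above all earlier ones, and both day 6 libraries above those (log2 fold change 0.90, SE 0.08, adjusted p = 1.89e-06 at day 4; log2 fold change 1.59, SE 0.08, adjusted p = 1.08e-08 at day 6). Per length it reached 43.8 RPKM at day 6, against 14.5 RPKM in untreated cells, and was the family's highest transcript over the 8 libraries. Kdm6b (JMJD3), a demethylase of lysine 27 of H3, dipped and then rose. It had 46.7 and 52.2 CPM in the untreated libraries, 40.8 and 37.8 at day 2, 55.6 and 56.8 at day 4 and 85.9 and 85.6 at day 6. The day 2 fall was marginal (adjusted p = 0.0478) and was lost in 13 of the 16 alternatives run. Its log2 fold change at day 2 was -0.25 without untreated replicate 2 and -0.27 without day 2 replicate 2. The day 6 rise was called in all 16 (log2 fold change 0.79, SE 0.08, adjusted p = 7.41e-06).

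Kdm5b, a demethylase of lysine 4 of H3, was scarce. It stood at 4.43 and 2.93 CPM in the untreated libraries, 3.34 and 1.795 at day 2, 2.36 and 3.218 at day 4 and 6.87 and 7.89 at day 6. Day 6 was called higher (log2 fold change 1.003, SE 0.31, adjusted p = 0.0145). The Kdm5b call was lost without untreated replicate 2 or day 6 replicate 2, at a log2 fold change of 0.74 to 0.90, and also under scaling by total counts. Its relative Kdm5a was higher too, with 125 and 119.6 CPM at day 6, against 95.7 and 86.1 CPM in the untreated libraries (log2 fold change 0.43, SE 0.09, adjusted p = 0.00137). Kdm5c, of the same specificity, was lower, with 136 and 136 CPM at day 6, against 171 and 184 CPM in the untreated libraries (log2 fold change -0.39, SE 0.07, adjusted p = 7.47e-04). Smaller rises were those of Kdm3b (log2 fold change 0.62, adjusted p = 6.28e-05), Kdm4a (log2 fold change 0.29, adjusted p = 0.00827) and Kdm2a (log2 fold change 0.23, adjusted p = 0.0429). The Kdm4a call was lost without day 6 replicate 1, at a log2 fold change of 0.26. The Kdm2a call was lost without untreated replicate 1, day 4 replicate 2 or either day 6 library, at a log2 fold change of 0.11 to 0.26. Kdm3b was not called with total counts, and 24.6% of its exon bases overlap another transcript. Kdm8, a Jumonji-domain protein, fell (log2 fold change -0.56, adjusted p = 0.0142), and so did Kdm4b, a demethylase of lysine 9 (log2 fold change -0.27, adjusted p = 0.0264). The Kdm8 call was lost without untreated replicate 2 or either day 6 library, at a log2 fold change of -0.60 to -0.38. The Kdm4b call was lost without either untreated library or either day 6 library, at a log2 fold change of -0.30 to -0.24. Kdm1a (LSD1), the flavin-dependent demethylase of the CoREST complex, stood at 63.6 and 63.4 CPM in the untreated libraries, 68.3 and 62.5 at day 2, 63.0 and 60.4 at day 4 and 59.6 and 61.9 at day 6. Both day 6 libraries lay slightly below both untreated ones, but Kdm1a did not pass the test at day 6 (log2 fold change -0.06, SE 0.08, adjusted p = 0.504). Kdm2b, a subunit of a Polycomb complex, was called higher at day 4, with 70.5 and 61.6 CPM at day 4, against 51.5 and 54.1 CPM in the untreated libraries (log2 fold change 0.32, SE 0.09, adjusted p = 0.015). It was lower at day 6 than at day 4 (log2 fold change -0.47, adjusted p = 0.00439). The Kdm2b call was lost without untreated replicate 1 or day 4 replicate 1, at a log2 fold change of 0.23 to 0.30 for the rise. The fall between days 4 and 6 was not called when day 4 replicate 1 or day 6 replicate 2 was left out, at -0.43 to -0.37.

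**Figure D4:**
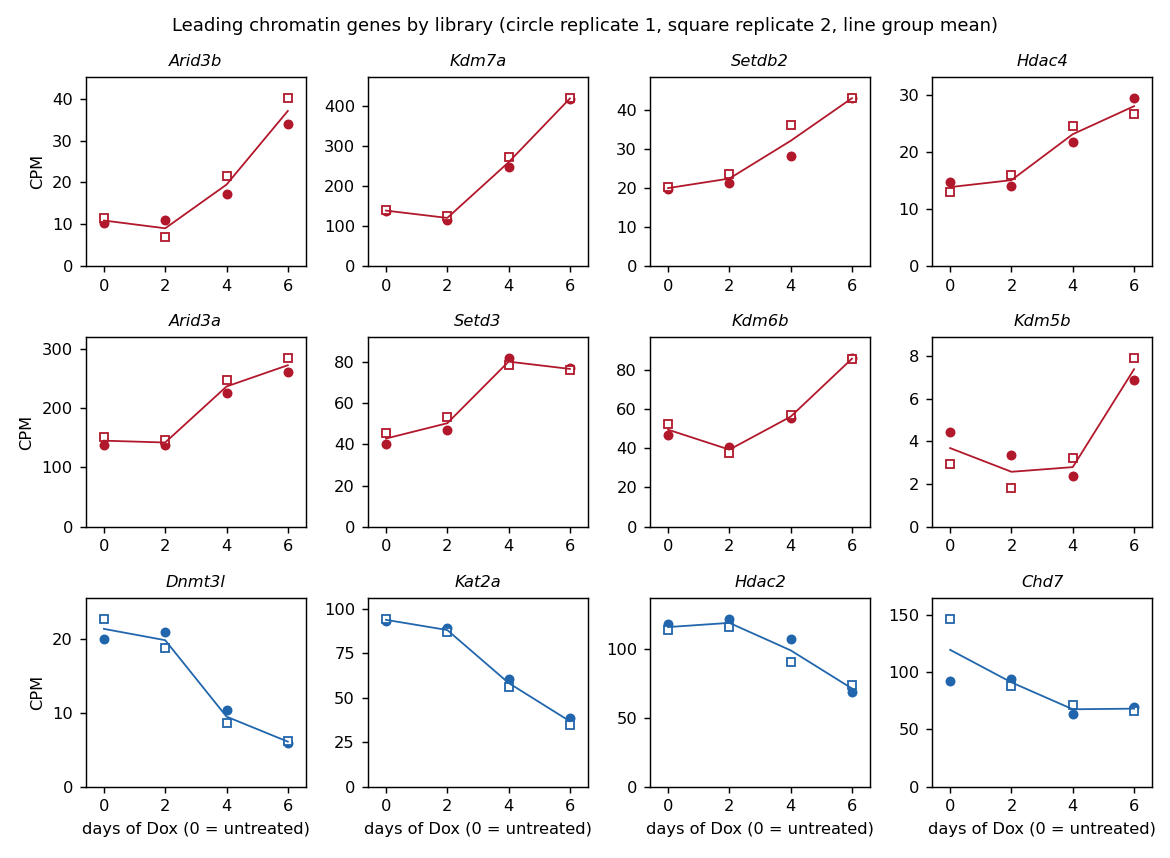
Panels give 12 members in CPM by library over days of Dox (0 is untreated). Circles are replicate 1, squares replicate 2 and lines join group means, with red for genes higher and blue for genes lower at day 6 than in untreated cells; Kdm7a reaches 417 and 419 CPM at day 6, against 138 and 140 CPM in the untreated libraries, and the untreated libraries of Chd7 lie apart at 92.2 and 147 CPM.

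Of 8 lysine methyltransferases named Kmt, 3 rose at day 6, where 32.0% of all genes rose, and the other 5 were not called. Kmt5a, which monomethylates lysine 20 of histone H4, had the highest mean RPKM of all 112 members over the 8 libraries, with 114 RPKM at day 6 and 86.2 RPKM in untreated cells. It had 309 and 316 CPM at day 6, against 219 and 253 CPM in the untreated libraries (log2 fold change 0.40, SE 0.08, adjusted p = 9.65e-04). Kmt5b, which adds further methyl groups to the same residue, had 84.3 and 79.8 CPM at day 6, against 50.3 and 54.1 CPM in the untreated libraries (log2 fold change 0.65, SE 0.08, adjusted p = 2.64e-05). Kmt2c, of the MLL family that methylates lysine 4 of H3, had 97.2 and 99.9 CPM at day 6, against 53.1 and 82.0 CPM in the untreated libraries (log2 fold change 0.54, SE 0.15, adjusted p = 0.00924). The Kmt2c call was lost without day 6 replicate 2, at a log2 fold change of 0.53. Under scaling by total counts the 3 calls were lost, 5 other Kmt genes fell, and the log2 fold change of Kmt5a was -0.03. The difference between the untreated libraries was large in long MLL genes, though it was not confined to them. Kmt2a had 56.5 and 101 CPM in the untreated libraries, 64.3 and 60.5 at day 2, 59.7 and 58.1 at day 4 and 66.3 and 58.0 at day 6. Kmt2d had 115 and 211 CPM in the untreated libraries, 125 and 102 at day 2, 119 and 142 at day 4 and 157 and 162 at day 6. In both, untreated replicate 2 stood above all 7 other libraries. Kmt2d at day 6 was not called (log2 fold change -0.03, SE 0.21, adjusted p = 0.918). It gave a called log2 fold change of -0.39 without untreated replicate 1 and of 0.47 without untreated replicate 2, so no direction can be read for it.

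Among 10 Setd genes 3 rose and 5 fell at day 6, where 32.0% of all genes rose and 31.6% fell. Setd3, which methylates a histidine of actin rather than a histone, measured 40.4 and 45.4 CPM in the untreated libraries, 47.2 and 53.6 at day 2, 82.0 and 78.8 at day 4 and 77.2 and 76.4 at day 6. It was higher from day 4 on (log2 fold change 0.91, SE 0.09, adjusted p = 8.18e-06 at day 4; log2 fold change 0.84, SE 0.09, adjusted p = 9.21e-06 at day 6). Setdb2, a methyltransferase of lysine 9 of H3, stood at 19.8 and 20.2 CPM in the untreated libraries, 21.2 and 23.7 at day 2, 28.1 and 36.1 at day 4 and 43.0 and 43.0 at day 6. Its later libraries lay above all earlier ones (log2 fold change 1.10, SE 0.13, adjusted p = 1.49e-05 at day 6). Its relative Setdb1 was lower, with 59.3 and 52.0 CPM at day 6, against 62.8 and 72.6 CPM in the untreated libraries (log2 fold change -0.28, SE 0.10, adjusted p = 0.0301). The Setdb1 call was lost without untreated replicate 2 or day 6 replicate 2, at a log2 fold change of -0.19 to -0.18. Setd7, an enzyme of histone and other lysines, rose (log2 fold change 0.28, adjusted p = 0.0416). The Setd7 call was lost without either untreated library, day 4 replicate 2 or day 6 replicate 1, at a log2 fold change of 0.14 to 0.30. Setd5, the family's highest transcript per length, had 137 and 136 CPM at day 6, against 178 and 208 CPM in the untreated libraries and was lower (log2 fold change -0.50, SE 0.08, adjusted p = 2.41e-04). Setd1a, a methyltransferase of lysine 4, fell (log2 fold change -0.35, adjusted p = 0.0222), and 51.8% of its exon bases overlap another annotated gene. The Setd1a call was lost without untreated replicate 2 or either day 6 library, at a log2 fold change of -0.38 to -0.14. Setd6 (log2 fold change -0.49, adjusted p = 0.0234) and Setd4 (log2 fold change -1.19, adjusted p = 0.0389) fell too, Setd4 with at most 39 counts in a library. The Setd6 call was lost without untreated replicate 1 or either day 6 library, at a log2 fold change of -0.58 to -0.41. The Setd4 call was lost without either untreated library or either day 6 library, at a log2 fold change of -1.57 to -0.88. Setd2, the enzyme that trimethylates lysine 36 of H3, had 187 and 186 CPM at day 6, against 157 and 200.3 CPM in the untreated libraries and was not called (adjusted p = 0.654).

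The Smarc genes encode subunits of the SWI/SNF (BAF) complexes and related remodellers. Of 12 tested, 2 rose and 5 fell at day 6, where 32.0% of all genes rose and 31.6% fell. Smarca4 (BRG1) is the more abundant of the alternative BAF ATPases. It had 244 and 286 CPM in the untreated libraries, 239.5 and 233 at day 2, 229 and 209 at day 4 and 204 and 197 at day 6 and was lower at day 6 (log2 fold change -0.40, SE 0.09, adjusted p = 0.00183). Smarcb1, a core subunit, had 74.5 and 72.6 CPM at day 6, against 112 and 96.4 CPM in the untreated libraries (log2 fold change -0.50, SE 0.09, adjusted p = 4.61e-04). Smarcc1, a scaffold subunit, had 110.5 and 116 CPM at day 6, against 129.8 and 143 CPM in the untreated libraries (log2 fold change -0.27, SE 0.08, adjusted p = 0.00904). The Smarcc1 call was lost without day 6 replicate 1, at a log2 fold change of -0.24. Smarcad1, a separate remodeller, was also lower (log2 fold change -0.37, adjusted p = 0.00863). The Smarcad1 call was lost without day 6 replicate 2, at a log2 fold change of -0.26. Smarca1, an ISWI-type ATPase, was nearly absent, with 2 and 4 counts at day 6, against 18 and 17 counts in the untreated libraries (log2 fold change -2.12, SE 0.50, adjusted p = 0.00307). Smarcal1, which anneals DNA strands at stalled forks, was higher (log2 fold change 0.24, adjusted p = 0.0236), and so was the BAF subunit Smarce1 (log2 fold change 0.33, adjusted p = 0.0244). The Smarcal1 call was lost without untreated replicate 1 or either day 6 library, at a log2 fold change of 0.19 to 0.26. The Smarce1 call was lost without either untreated library or either day 6 library, at a log2 fold change of 0.29 to 0.37. With total counts Smarcal1 turned to -0.20 and Smarce1 to -0.10. Smarcd2, a subunit needed for granulocyte development, was the family's most abundant transcript per length. It stood at 198 and 183 CPM in the untreated libraries, 199 and 182 at day 2, 197 and 194 at day 4 and 198 and 203 at day 6, with overlapping groups (log2 fold change 0.08, SE 0.08, adjusted p = 0.393). Smarca5, the main ISWI ATPase, had 92.0 and 102 CPM at day 6, against 87.3 and 93.9 CPM in the untreated libraries and was not called (adjusted p = 0.302). An annotated pseudogene, Smarca5-ps, could share its reads.

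Of 10 Chd remodellers, most of which carry chromodomains, 7 fell at day 6, where 31.6% of all genes fell, and 7 at day 4, where 22.0% did. The other 3 were not called on either day. Without untreated replicate 2 the counts were 1 higher and 4 lower at day 6, and 3 lower at day 4. Without untreated replicate 1 they were 7 lower at day 6 and 9 at day 4. Chd4, the ATPase of the NuRD complex, was the most abundant Chd transcript per length, at 75.5 RPKM at day 6 and 103 RPKM in untreated cells. It had 623 and 703 CPM in the untreated libraries, 563 and 559 at day 2, 502 and 508 at day 4 and 482 and 491 at day 6. The libraries of days 4 and 6 lay below all earlier ones, and the fall was called without either untreated library (log2 fold change -0.45, SE 0.08, adjusted p = 4.42e-04 at day 6). Chd7, mutated in CHARGE syndrome in humans, had 92.2 and 147 CPM in the untreated libraries, 94.0 and 88.2 at day 2, 63.8 and 71.5 at day 4 and 69.9 and 66.5 at day 6. The untreated libraries were further apart than replicate 1 was from day 2, and the day 6 fall was called without either of them (log2 fold change -0.81, SE 0.17, adjusted p = 0.0014). Chd2 had 41.1 and 47.3 CPM at day 4, against 62.0 and 75.6 CPM in the untreated libraries (log2 fold change -0.64, SE 0.11, adjusted p = 5.59e-04), and its log2 fold change at day 6 was -0.41. Of its exon bases 18.4% overlap another transcript on the same strand. The Chd2 call was lost without untreated replicate 2 or day 6 replicate 2, at a log2 fold change of -0.38 to -0.26 at day 6. Chd6 (log2 fold change -0.43, adjusted p = 0.0186) and Chd9 (log2 fold change -0.36, adjusted p = 0.00432) fell as well at day 6. The Chd6 call was lost without untreated replicate 2 or either day 6 library, at a log2 fold change of -0.48 to -0.22. The Chd9 call was lost without day 6 replicate 2, at a log2 fold change of -0.30. Chd5, known as a tumour suppressor, had 2 and 2 counts at day 6, against 13 and 21 counts in the untreated libraries (log2 fold change -2.64, SE 0.58, adjusted p = 0.00205). Chd3, a paralogue of Chd4, had 10 and 15 counts at day 6, against 30 and 60 counts in the untreated libraries (log2 fold change -1.46, adjusted p = 0.00896). The Chd3 call was lost without untreated replicate 2 or day 6 replicate 1, at a log2 fold change of -1.22 to -0.89. Chd1 (log2 fold change 0.05, adjusted p = 0.709), Chd1l (log2 fold change -0.12, adjusted p = 0.267) and Chd8 (log2 fold change 0.04, adjusted p = 0.679) did not pass the test at day 6.

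Arid genes encode AT-rich DNA-binding proteins, some of them BAF subunits. Of 9 tested, 3 rose and 2 fell at day 6, where 32.0% of all genes rose and 31.6% fell. Arid3b showed the largest rise of all members. It had 10.3 and 11.6 CPM in the untreated libraries, 11.1 and 7.09 at day 2, 17.3 and 21.6 at day 4 and 34.0 and 40.1 at day 6. The day 4 and day 6 libraries did not overlap each other or any earlier library (log2 fold change 0.83, SE 0.19, adjusted p = 0.00363 at day 4; log2 fold change 1.76, SE 0.18, adjusted p = 6.17e-06 at day 6). Arid3a (Bright), an activator of immunoglobulin genes in B cells, had 139 and 152 CPM in the untreated libraries, 138 and 147 at day 2, 225 and 248 at day 4 and 261 and 284 at day 6. It was higher at day 4 than at day 2 (log2 fold change 0.74, SE 0.08, adjusted p = 3.63e-05) and at day 6 than in untreated cells (log2 fold change 0.91, SE 0.08, adjusted p = 2.37e-06). Arid4a, a partner of the retinoblastoma protein in a Sin3 complex, had 90.6 and 91.5 CPM at day 6, against 52.1 and 61.7 CPM in the untreated libraries (log2 fold change 0.68, SE 0.09, adjusted p = 4.15e-05). With total counts it stood at 0.24 and was not called. The falls were in the BAF subunits Arid2 (log2 fold change -0.25, adjusted p = 0.0152) and Arid1b (log2 fold change -0.33, adjusted p = 0.0101). The Arid2 call was lost without untreated replicate 2 or either day 6 library, at a log2 fold change of -0.27 to -0.17. The Arid1b call was lost without untreated replicate 2 or day 6 replicate 2, at a log2 fold change of -0.27 to -0.19. Under scaling by total counts 2 Arid genes rose and 4 fell, with a median of -0.19, against 0.24 with TMM. Arid1a, the most often mutated BAF subunit in human cancers, had 219 and 304 CPM in the untreated libraries, 210.1 and 197 at day 2, 228 and 221 at day 4 and 221 and 225 at day 6. Untreated replicate 2 was highest and it did not pass at any day (at day 6, adjusted p = 0.119).

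Bromodomain proteins read acetylated lysines. Of 7 Brd genes 3 rose and 1 fell at day 6, where 32.0% of all genes rose and 31.6% fell. Brd7, a PBAF subunit, had 134 and 133 CPM at day 6, against 84.9 and 99.1 CPM in the untreated libraries (log2 fold change 0.54, SE 0.08, adjusted p = 1.57e-04). Brd9, a subunit of noncanonical BAF, had 65.8 and 71.2 CPM at day 6, against 46.5 and 50.6 CPM in the untreated libraries (log2 fold change 0.50, SE 0.10, adjusted p = 0.00102). Brd3, of the BET subfamily, had 81.5 and 82.6 CPM at day 6, against 60.8 and 69.8 CPM in the untreated libraries (log2 fold change 0.33, SE 0.09, adjusted p = 0.007). Brd1, a scaffold of acetyltransferase complexes, was lower, with 125 and 134 CPM at day 6, against 176 and 229 CPM in the untreated libraries (log2 fold change -0.65, SE 0.11, adjusted p = 2.93e-04). Brd2, the family's highest transcript per length, had 318 and 316 CPM at day 6, against 245 and 312 CPM in the untreated libraries and was not called (adjusted p = 0.125), but was called higher without untreated replicate 2, at 0.38. With total counts none of the 3 rises was called, 3 Brd genes fell, and the family median was -0.25, against 0.19 with TMM.

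Of 4 genes of DNA methylation 3 fell at day 6, where 31.6% of all genes fell. These calls were kept with every library left out in turn and under every scaling. Dnmt3l is a cofactor of the de novo methyltransferases without catalytic activity. It had 20.01 and 22.8 CPM in the untreated libraries, 21.0 and 18.8 at day 2, 10.3 and 8.68 at day 4 and 5.97 and 6.27 at day 6. Days 4 and 6 lay below all earlier libraries (log2 fold change -1.17, SE 0.14, adjusted p = 4.00e-05 at day 4; log2 fold change -1.80, SE 0.15, adjusted p = 1.27e-06 at day 6). Dnmt3b, a de novo enzyme, had 12.6 and 12.9 CPM in the untreated libraries, 12.9 and 13.7 at day 2, 12.3 and 10.3 at day 4 and 7.09 and 6.70 at day 6. It was lower at day 6 (log2 fold change -0.89, SE 0.16, adjusted p = 4.32e-04) and not called at day 4 (adjusted p = 0.344). Dnmt3a, the other de novo enzyme, was lower from day 2 on. It measured 64.0 and 66.9 CPM in the untreated libraries, 49.0 and 48.0 at day 2, 44.9 and 50.1 at day 4 and 47.7 and 47.2 at day 6. All 6 Dox libraries lay below both untreated ones (log2 fold change -0.43, SE 0.08, adjusted p = 0.0126 at day 2; log2 fold change -0.46, SE 0.08, adjusted p = 5.25e-04 at day 6). The Dnmt3a call was lost without untreated replicate 2 or day 2 replicate 2, at a log2 fold change of -0.41 to -0.40 at day 2. Dnmt1, the maintenance enzyme and the family's most abundant transcript per length, had 433 and 458 CPM at day 6, against 408 and 449 CPM in the untreated libraries and was not called (log2 fold change 0.06, SE 0.08, adjusted p = 0.552). Tet2 and Tet3 oxidise methylcytosine. Tet2 had 24.9 and 39.7 CPM in the untreated libraries, 37.0 and 41.1 at day 2, 41.3 and 49.4 at day 4 and 39.6 and 39.1 at day 6. Its day 4 rise (log2 fold change 0.49, SE 0.17, adjusted p = 0.0385) depended on single libraries. The Tet2 call was lost without untreated replicate 1, day 4 replicate 2 or either day 6 library, at a log2 fold change of 0.19 to 0.48 at day 4. Tet3 had 123 and 129 CPM at day 6, against 92.6 and 120.1 CPM in the untreated libraries, with no call at day 6 (adjusted p = 0.0642). Without untreated replicate 2 Tet2 and Tet3 were called higher at day 6, at 0.66 and 0.44.

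Changes between successive days were fewest at the first step. Between untreated cells and day 2 the calls were the 2 falls above. For day 4 over day 2, 19 members rose and 15 fell, where 37.6% of all genes were called. Among members with an average log2 CPM of at least 2, the largest log2 rises were those of Arid3b (1.12), Kdm7a (1.10) and Arid3a (0.74), and the largest falls those of Prmt3 (-1.41), Dnmt3l (-1.06) and Prmt5 (-0.61). For day 6 over day 4, 14 rose and 14 fell, where 29.9% of all genes were called. Here Kdm5b (1.40), Arid3b (0.93) and Kdm7a (0.69) led the rises, and Prmt3 (-0.90), Prmt7 (-0.82) and Prmt5 (-0.75) the falls. The Kdm5b call was lost without day 4 replicate 1 or day 6 replicate 2, at a log2 fold change of 1.20 to 1.31. Leaving out a day 2 or a day 4 library lowered the first count to 18 to 21. The second was 10 in the absence of day 4 replicate 1, 14 when day 6 replicate 1 was left out and 12 when its replicate 2 was. Of the 110 members 63 were not called at any of the 3 steps, or 57.3%, against 49.0% of all genes. Called lower at both of the last steps were Dnmt3l, Hdac2, Kat2a, Prmt1, Prmt3, Prmt5 and Prmt7, and called higher at both were Arid3b, Arid4a, Kdm3b, Kdm7a, Kmt5b, Setdb2 and Sirt7. Of these, Kat2a, Prmt3 and Prmt5 among the falls and Arid3b and Kdm7a among the rises kept both calls with each library left out in turn. The other 9 lost at least 1 of their calls. Leaving out single libraries took the log2 fold change of day 4 over day 2 to -0.30 to -0.15 for Hdac2, -0.25 for Prmt1 and 0.19 to 0.29 for Kmt5b where the call was lost. The same held for day 6 over day 4 of Dnmt3l (-0.67 to -0.50), Arid4a (0.29 to 0.31), Kdm3b (0.24 to 0.35), Setdb2 (0.25 to 0.43) and Sirt7 (0.21 to 0.25). The libraries concerned were either day 2 library, day 4 replicate 2 or either day 6 library for Hdac2, day 4 replicate 2 for Prmt1, and any library but the untreated ones for Kmt5b. They were day 4 replicate 1 or either day 6 library for Dnmt3l, Kdm3b and Setdb2, and any day 4 or day 6 library for Arid4a and Sirt7. For day 4 over day 2, Kdm3b was also not called without day 4 replicate 2 (0.28) and Setdb2 without day 2 replicate 1 or day 4 replicate 2 (0.31 to 0.43). For day 6 over day 4, the same was true of Kmt5b without day 4 replicate 1 or day 6 replicate 1 (0.32 to 0.33).

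The balance between paralogues was measured as the share of 1 gene in the summed RPKM of its pair or group. With 2 libraries a group an exact test cannot go below p = 0.333, so the shares are a description. Kat2a made up 50.2% and 46.0% of Kat2a and Kat2b at day 6, against 73.1% and 72.5% in the untreated libraries, so the 2 acetyltransferase transcripts came to nearly equal levels. Hdac1 made up 43.7% and 42.1% of Hdac1 and Hdac2 at day 6, against 31.7% and 30.8% in the untreated libraries. Kdm6b made up 46.7% and 45.0% of Kdm6b and Kdm6a at day 6, against 35.0% and 36.8% in the untreated libraries. In each of these pairs both day 6 values lay outside the untreated values. Smarcc1 made up 37.0% and 37.9% of Smarcc1 and Smarcc2 at day 6, against 45.6% and 43.3% in the untreated libraries. Hdac4 made up 9.19% and 8.66% of the 4 class IIa genes at day 6, against 4.62% and 3.68% in the untreated libraries. The shares of the BAF and NuRD ATPases moved little. Smarca4 held 79.2% and 75.8% of Smarca4 and Smarca2 at day 6, against 78.4% and 79.8% in the untreated libraries. Chd4 held 99.8% and 99.7% of Chd4 and Chd3 at day 6, against 99.6% and 99.3% in the untreated libraries. Arid1a, with 77.2% and 78.7% of Arid1a and Arid1b at day 6, against 75.3% and 77.9% in the untreated libraries, overlapped between the groups.

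**Figure D5:**
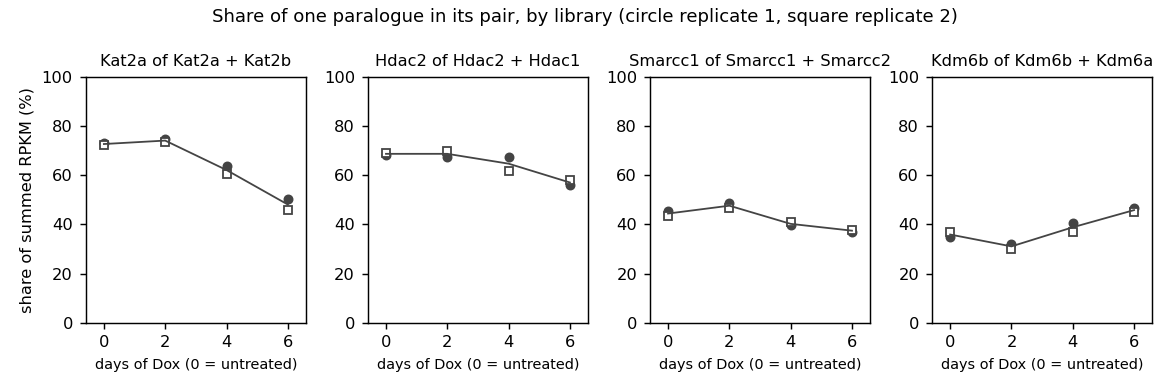
Each panel gives the share, in percent of summed RPKM, of the first gene of a paralogue pair in each library over days of Dox (0 is untreated); circles are replicate 1, squares replicate 2 and lines join group means. The Kat2a share falls to 50.2% and 46.0% at day 6, against 73.1% and 72.5% in the untreated libraries, and the Kdm6b share rises to 46.7% and 45.0%, against 35.0% and 36.8% in the untreated libraries.

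Chromatin genes outside these prefixes were called at day 6 about as often as all genes. Of 154 tested, 41 rose and 53 fell, or 61.0%, where 63.6% of all genes were called. Their median log2 fold change was -0.05, beside -0.06 over the members and -0.04 over all genes. The largest falls were in Rcor2, a CoREST subunit, with 0.338 and 0.216 CPM at day 6, against 4.85 and 6.88 CPM in the untreated libraries (log2 fold change -4.35, SE 0.42, adjusted p = 3.23e-06), in the lysine methyltransferase Smyd2 and in the Polycomb subunit Cbx2. Smyd2 had 6.31 and 7.67 CPM at day 6, against 32.6 and 32.3 CPM in the untreated libraries (log2 fold change -2.21, SE 0.17, adjusted p = 4.42e-07). Cbx2 had 1.46 and 1.51 CPM at day 6, against 4.68 and 5.37 CPM in the untreated libraries (log2 fold change -1.75, SE 0.28, adjusted p = 1.97e-04). The largest rises were in another Polycomb subunit, Cbx8, with 14.0 and 13.8 CPM at day 6, against 5.28 and 5.28 CPM in the untreated libraries (log2 fold change 1.39, SE 0.16, adjusted p = 1.41e-05), in the BAF subunit Ss18l1 and in the cytidine deaminase Apobec1. Ss18l1 had 7.54 and 7.78 CPM at day 6, against 2.21 and 4.44 CPM in the untreated libraries (log2 fold change 1.20, SE 0.29, adjusted p = 0.00383). Apobec1 had 97.4 and 97.9 CPM at day 6, against 40.4 and 47.7 CPM in the untreated libraries (log2 fold change 1.15, SE 0.11, adjusted p = 4.58e-06). Of 32 Polycomb genes 8 rose and 11 fell, where 32.0% of all genes rose and 31.6% fell. Carm1, an arginine methyltransferase outside the Prmt prefix and named here after its values were seen, had 19.7 and 21.6 CPM at day 6, against 46.6 and 49.2 CPM in the untreated libraries (log2 fold change -1.21, SE 0.11, adjusted p = 1.90e-06).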

How the data were processed

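Per the file headers, every deposited table has 3 columns, the Entrez gene ID, its length and its count. The counts are whole numbers. Per the submitters' processing notes, the build was mm10, and the tools, listed without settings, were featureCounts, CASAVA 1.8.2, limma 3.22.0 and edgeR 3.8.2. Neither an aligner nor the strandedness is given in the sources used here. Every gene in the tables reached a CPM of 0.501 in at least 3 libraries, so a gene silent in most libraries is not analysed here. The RefSeq annotation of GRCm38.p6 named 12555 of the 12830 IDs; the others hold 2.24% of all counts.

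All 8 libraries entered 1 fit (R 4.3.3, edgeR 4.0.16: filterByExpr, which left out 500 genes holding 0.0267% of counts, TMM, glmQLFit, glmQLFTest, group means without a block), with Benjamini-Hochberg adjustment over 12330 genes and a threshold of 0.05. The procedure was also run on simulated data with the same spread for every gene and no outlying library, and no result here rests on that run. CPM use TMM-scaled library sizes, and RPKM also the deposited gene length. Alternatives were RLE and total-count scaling, no filter, a CPM of 1 in 2 libraries, DESeq2 1.42.0, a minimum change of 1.5-fold, a replicate block and each library left out; removal of each library's trend with gene length was added after seeing the data. Leaving out a library leaves 1 in that group, which is assumed to vary like the other groups.

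The members and gene lists were chosen with earlier results of these data known. Named are the 5 (day 2) or 10 (days 4 and 6) largest called rises and falls against untreated with an average log2 CPM of at least 2 and no overlap, the 3 largest of the 2 later steps, per family the highest RPKM and the highest and lowest fold change, the paralogue sets, Spi1, and 3 rises and 3 falls of other chromatin genes. Other members complete a family's count and were named after their values were seen. One member's own values are not reported here.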

Additional observations from a re-analysis of the deposited data

How the results depend on the processing

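The number of members called at day 2, reported as 2, was 1 with RLE factors, no filter, the replicate block or the gene-length trend removed. In these settings 4.96% to 6.63% of all genes were called. Total counts called 14 members and 6.72% of all genes. In day 2 replicate 1 a single gene held 13.3% of all counts, and its part was not tested. A minimum change of 1.5-fold called 0 members and 0.195% of all genes. With 1 library left out, the members' median log2 fold change at day 2 ran from -0.16 to -0.010. The further counts here are for the members alone, without the share of all genes called in the same setting. At day 4 (47 called) and day 6 (65) a minimum change of 1.5-fold left 4 and 18, and leaving out 1 library gave 32 to 52 and 47 to 66. For day 4 over day 2 (34) total counts gave 20, the minimum change 5 and leaving out 1 library 18 to 47; for day 6 over day 4 (28) the last 2 gave 1 and 10 to 37. The test over all 4 groups called 51 to 84 members with 1 library left out. DESeq2 called 36 at day 4 and 55 at day 6.

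At day 6, scaling by total counts turned the log2 fold changes of Kmt5a (-0.032), Smarcd2 (-0.36), Smarce1 (-0.10), Chd1 (-0.39), Dnmt1 (-0.38), Smarcd1 (-0.35), Smarca5 (-0.34), Hdac1 (-0.41), Kat6a (-0.16), Kdm4a (-0.14), Brd3 (-0.11), Chd8 (-0.39), Kdm2a (-0.20), Kdm5a (-0.00646), Setd2 (-0.37), Setd7 (-0.16) and Smarcal1 (-0.20) below 0. That scaling shifted the median of all genes to -0.47. Kmt2d turned to 0.47 without untreated replicate 2.

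The replicate numbers did not pair the libraries: correlations of same-numbered deviations ran from -0.13 to 0.21. With the replicate block 45 members were called at day 4 and 65 at day 6, and of 144 named calls the block lost 4 (Kdm6b at day 2, Kdm4b and Chd9 at day 4, Setd7 at day 6). Low counts limit Chd3, Chd5, Smarca1, Setd4, Sirt4, Sirt5 and Kdm5b.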
